A study of Rattus norvegicus with 12 samples.

Results

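The library postSTC7, 1 of 12 libraries of rat intestine, held a set of transcripts led by those of the male accessory glands. The set was chosen from the counts themselves. A gene was kept where it had at least 200 counts in postSTC7 and where its share of that library's counts was at least 10 times its highest share in any of the other 11 libraries. Of 18749 genes in the count table, 88 met the rule (0.469%), and together they took 47.9% of the counts of postSTC7 (Wilson 95% interval 47.93 to 47.96%). Because the counts of all 12 libraries chose these genes, their excess in postSTC7 is given as a description, without a test.

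The series concerns adaptation of the small intestine to total colectomy, and polyadenylated RNA was sequenced from intestine of wild-type rats. The group postSTC (replicates 1, 2, 5 and 7) is labelled postoperative, preSTC (replicates 1, 5, 7 and 9) preoperative, and preCTC (replicates 1, 5, 7 and 9) as taken ahead of a sham operation. Every library is labelled batch 1, while strain, age, gut segment and the meaning of STC and CTC are not given. Nothing in the labels ties a replicate to an animal of its own, so the p-values reflect only how these libraries varied, and that variation may be technical. Libraries held 30095656 to 39374682 counts, and intervals cover counting error only.

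Seminal vesicles, the prostate and the coagulating gland, which is a lobe of the rodent prostate, make most of the fluid of semen. In rodents the vesicle supplies a few very abundant secretory proteins, and a transglutaminase from the coagulating gland cross-links them into the copulatory plug. The expression of these secretory genes depends on androgens, and they are known as markers of the glands and not of the gut. Semg1, Svs4, Pbsn and Tgm4, the markers of these glands, were all among the 88 genes. Of 10 genes of a seminal vesicle list found in the table, 9 were in the set, the exception being Spink1. Andpro and Pate4, among these 9, are placed in other role groups below. Of 12 genes of a prostate and coagulating gland list, 5 were in the set. Of the other 7, Klk1c8 and Klk1c9, kallikrein genes, had a share in postSTC7 of 67.1 and 2.88 times the highest other share, but with 73 counts Klk1c8 was under the limit. Dmbt1, Azgp1, Pi15, Acp3 and Mme were below the highest other share, at 0.0402, 0.0472, 0.0936, 0.248 and 0.256 of it.

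The 6 promoter windows printed here belong to Semg1 and Svs4, the genes with the most counts, to Svs5 and Svs6, whose windows are alike, and to the prostate and coagulating gland markers Pbsn and Tgm4. They are RefSeq sequences of assembly GRCr8, read on the gene's own strand, from 250 bases before the annotated start to 50 bases after it. Capitals mark TATAAA, the letters of the TATA box motif, at any position on the gene's strand. They also mark TGTTCT, a core motif of the androgen response element, on either strand. The windows are chr3:173332212-173332511 (minus strand) for Semg1, chr3:173369829-173370128 (minus) for Svs4, chr3:173415271-173415570 (plus) for Svs5, chr3:173397442-173397741 (plus) for Svs6, chrX:45807934-45808233 (minus) for Pbsn and chr8:131566637-131566936 (plus) for Tgm4.
Semg1: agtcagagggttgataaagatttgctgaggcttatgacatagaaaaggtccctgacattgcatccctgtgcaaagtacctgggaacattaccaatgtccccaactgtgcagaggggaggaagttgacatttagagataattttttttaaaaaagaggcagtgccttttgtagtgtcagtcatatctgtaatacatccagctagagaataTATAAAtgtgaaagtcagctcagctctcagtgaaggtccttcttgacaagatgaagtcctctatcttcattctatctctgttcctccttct
Svs4: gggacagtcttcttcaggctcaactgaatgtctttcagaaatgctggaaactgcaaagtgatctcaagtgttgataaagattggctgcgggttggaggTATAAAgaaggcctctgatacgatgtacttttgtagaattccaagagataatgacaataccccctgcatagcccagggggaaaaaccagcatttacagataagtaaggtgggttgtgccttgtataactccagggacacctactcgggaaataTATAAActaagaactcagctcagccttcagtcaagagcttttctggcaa
Svs5: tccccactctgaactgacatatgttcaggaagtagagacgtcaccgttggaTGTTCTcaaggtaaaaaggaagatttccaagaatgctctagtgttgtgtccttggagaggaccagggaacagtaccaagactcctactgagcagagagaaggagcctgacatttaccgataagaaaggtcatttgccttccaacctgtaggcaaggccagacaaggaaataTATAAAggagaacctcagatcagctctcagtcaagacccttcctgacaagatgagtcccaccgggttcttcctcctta
Svs6: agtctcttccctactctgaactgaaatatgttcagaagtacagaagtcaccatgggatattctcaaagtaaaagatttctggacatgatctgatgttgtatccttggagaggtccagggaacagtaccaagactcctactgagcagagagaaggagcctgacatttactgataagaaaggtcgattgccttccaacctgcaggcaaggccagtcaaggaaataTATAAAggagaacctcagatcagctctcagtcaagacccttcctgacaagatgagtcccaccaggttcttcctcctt
Pbsn: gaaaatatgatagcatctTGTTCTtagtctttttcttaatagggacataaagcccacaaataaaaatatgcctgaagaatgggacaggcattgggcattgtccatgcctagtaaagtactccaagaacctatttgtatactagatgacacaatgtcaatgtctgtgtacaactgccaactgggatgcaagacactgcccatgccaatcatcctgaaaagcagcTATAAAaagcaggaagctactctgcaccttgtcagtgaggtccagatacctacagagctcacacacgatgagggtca
Tgm4: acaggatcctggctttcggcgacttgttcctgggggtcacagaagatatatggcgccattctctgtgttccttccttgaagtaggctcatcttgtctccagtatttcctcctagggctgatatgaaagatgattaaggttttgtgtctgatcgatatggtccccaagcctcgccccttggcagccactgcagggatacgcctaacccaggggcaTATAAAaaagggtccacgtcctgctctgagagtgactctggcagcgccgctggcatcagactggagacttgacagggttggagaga

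Each of these 6 windows held TATAAA. Counted from the annotated start, its first base was at -41 in Semg1, -27 in Svs6 and Pbsn, -28 in Svs5 and -36 in Tgm4. In Svs4 it was at -152 and again at 2. Over the set, 66 of 88 genes matched a promoter window. Of those, 17 held TATAAA at any position on the gene's strand (25.8%), beside 9.08% of 27457 RefSeq promoter windows. TGTTCT was found on either strand in 16 of the 66 (24.2%), beside 20.1% of all windows. Among the printed windows it was in Svs5, at -199, and in Pbsn, at -232. The letters of these 2 motifs did not overlap in the printed windows. A match is a string of letters in this window and says nothing of a bound factor.

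The seminal vesicle secretory proteins made up most of the set. Their 7 genes, Semg1, Svs1, Svs3a, Svs3b, Svs4, Svs5 and Svs6, took 42.7% of the counts of postSTC7 (16823709 counts). Semg1, which encodes a semenogelin of the seminal clot, held 6716064 counts in postSTC7, and 2885, 2692 and 2779 counts in postSTC1, postSTC2 and postSTC5. It held 1, 1, 2969 and 0 counts in preSTC1, preSTC5, preSTC7 and preSTC9, and 0 in each preCTC library. So 1 library stood above all others, 4 formed a middle level of 2692 to 2969 counts, and the remaining 7 were at 0 or 1.

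Svs4, a small basic protein of the vesicle fluid, showed the same 3 levels. It had 5254446 counts in postSTC7, 2439, 2123 and 2406 in postSTC1, postSTC2 and postSTC5, and 1, 5, 2438 and 1 in preSTC1, preSTC5, preSTC7 and preSTC9. In preCTC it had 1 count in preCTC9 and 0 in the others. Svs3a held 1408625 counts in postSTC7, Svs6 1246289, Svs5 1080580, Svs1 835737 and Svs3b 281968. These 5 genes had 102 to 596 counts in the 4 libraries of the middle level and 0 or 1 in the other 7.

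On a scale that takes length into account the order of the vesicle genes was different. Svs4 led with 222784 FPKM (the authors' counts scaled by gene length and library total) in postSTC7, ahead of Semg1 with 116112 FPKM, Svs6 with 58507, Svs5 with 43700 and Svs3a with 30266 FPKM. Svs1 had 8504 FPKM and Svs3b 1048 FPKM. The FPKM values of Svs3b rest on an implied length of 6833 bases, against 1182 bases for Svs3a. In a gapped alignment the promoter windows of Svs3a and Svs3b had 295 identical bases, set against the window length of 300 (98.3%). Transcripts were not compared, so how reads were divided between these 2 genes is uncertain. By the same measure the windows of Svs5 and Svs6 had 269 identical bases (89.7%). Semg1 and Svs4 had 145 (48.3%), the lowest of the vesicle pairs aligned, and the remaining pairs reached at most 59.3%. All 88 genes together took 65.8% of the summed FPKM of postSTC7.

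**Figure D1:**
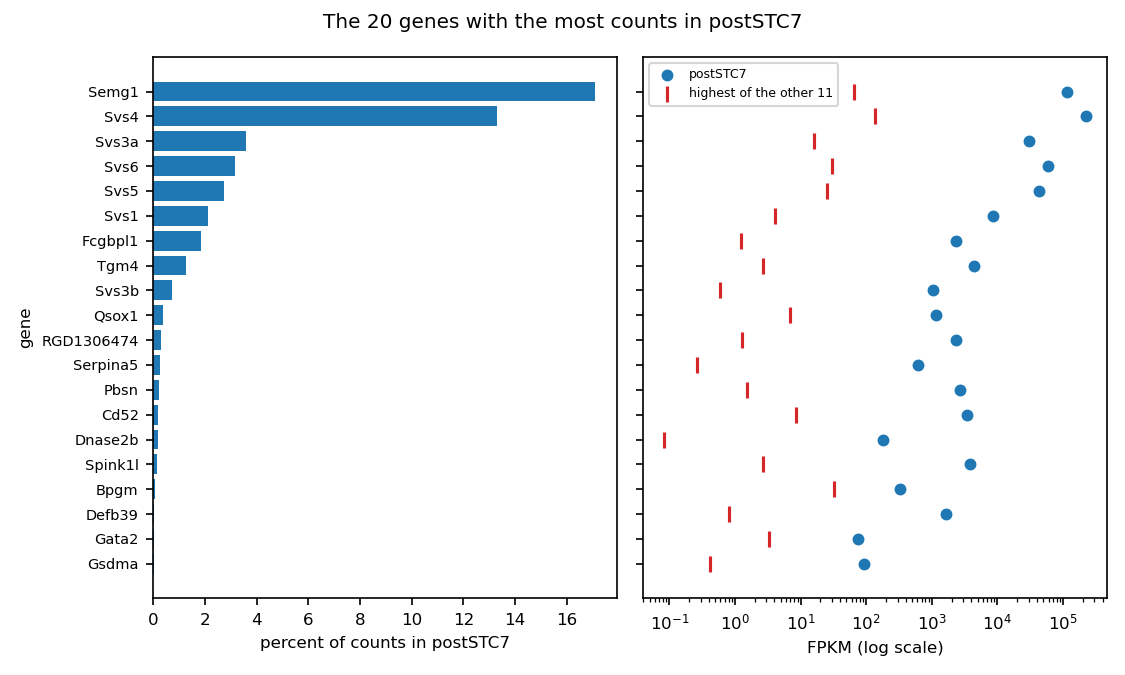
The 20 genes of the set with the most counts in postSTC7: bars give the percent of that library's counts, points its FPKM on a log axis, and red ticks the highest FPKM in any of the other 11 libraries. Semg1 leads by counts (17.1%) and Svs4 by FPKM (222784).

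The prostate and coagulating gland group had 12 genes and 1.56% of the counts of postSTC7 (612744 counts). Tgm4, the transglutaminase that cross-links the clot proteins, had 503359 counts in postSTC7, and 232, 116 and 127 in postSTC1, postSTC2 and postSTC5. It had 6, 0, 221 and 1 counts in preSTC1, preSTC5, preSTC7 and preSTC9, and 0 in each preCTC library. Pbsn, probasin, a lipocalin of the rat prostate, had 80662 counts in postSTC7, and 35, 24 and 24 in postSTC1, postSTC2 and postSTC5. It had 0, 1, 36 and 0 counts in preSTC1, preSTC5, preSTC7 and preSTC9, and 0 in each preCTC library. For both genes the same 5 libraries as for Semg1 stood above the other 7.

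The other genes of this group were much weaker. They were the secretoglobin genes Scgb2a1 (10729 counts in postSTC7), Scgb1d2 (3969) and Scgb1d4 (3040), Msmb, which encodes beta-microseminoprotein (4184), Andpro, an androgen-regulated protein gene (2100), Sbp, the spermine binding protein gene (1482), the cystatin-related P22k15 (1468) and LOC296235 (370), the diamine-oxidase-like Doxl2 (1015) and S100vp, an S100 gene named after the ventral prostate (366). Per length, Pbsn stood at 2640 FPKM and Tgm4 at 4457 FPKM in postSTC7, while Scgb2a1 stood at 244 and Msmb at 195 FPKM. Scgb1d4 and Sbp were at 0 counts in all of the other 11 libraries.

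Another 17 genes encode other secreted, surface or lysosomal proteins, which took 3.06% of the counts of postSTC7. Fcgbpl1, related to the mucus protein Fcgbp, led it with 723491 counts in postSTC7, and had 298, 208 and 279 in postSTC1, postSTC2 and postSTC5, 46, 82, 358 and 100 in preSTC1, preSTC5, preSTC7 and preSTC9, and 68 to 179 in preCTC. Qsox1, a sulfhydryl oxidase that forms disulfide bonds in secreted proteins, had 148673 counts in postSTC7 and 428 to 844 in the other 11 libraries. So both had counts in all 12 libraries, unlike Semg1 or Tgm4. Serpina5, a protease inhibitor of seminal plasma, had 105620 counts in postSTC7, 26, 37 and 39 in postSTC1, postSTC2 and postSTC5, 0, 0, 36 and 0 in preSTC1, preSTC5, preSTC7 and preSTC9, and 1 in preCTC, in preCTC9. Spink1l, a Kazal-type protease inhibitor gene, had 55986 counts in postSTC7, 23 to 35 in the other postSTC libraries, 24 in preSTC7 and 0 in the remaining 7 libraries.

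Cd52, a surface glycoprotein of lymphocytes and of the male genital tract, had 72189 counts in postSTC7 and 31 to 171 elsewhere, and Dnase2b, a DNase II gene, had 67798 and 0 to 28. The beta-defensin genes Defb39, Defb37 and Defb50 had 18766, 1189 and 260 counts in postSTC7, and at most 8 counts in any other library. Pate4 and Pate2, genes of small cysteine-rich proteins named for prostate and testis, had 3778 and 234 counts in postSTC7, and 1 and 0 counts over the other 11. The remaining genes of the group were Prp2l1, Wif1, Endou, Lrcol1, Vnn3 and Wnt7b, with 4915, 2062, 905, 385, 274 and 270 counts in postSTC7. The table's GO terms placed 32 of the 80 annotated genes of the set in the extracellular region or space, beside 1680 of 16544 annotated genes of the whole table (10.2%).

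**Figure D2:**
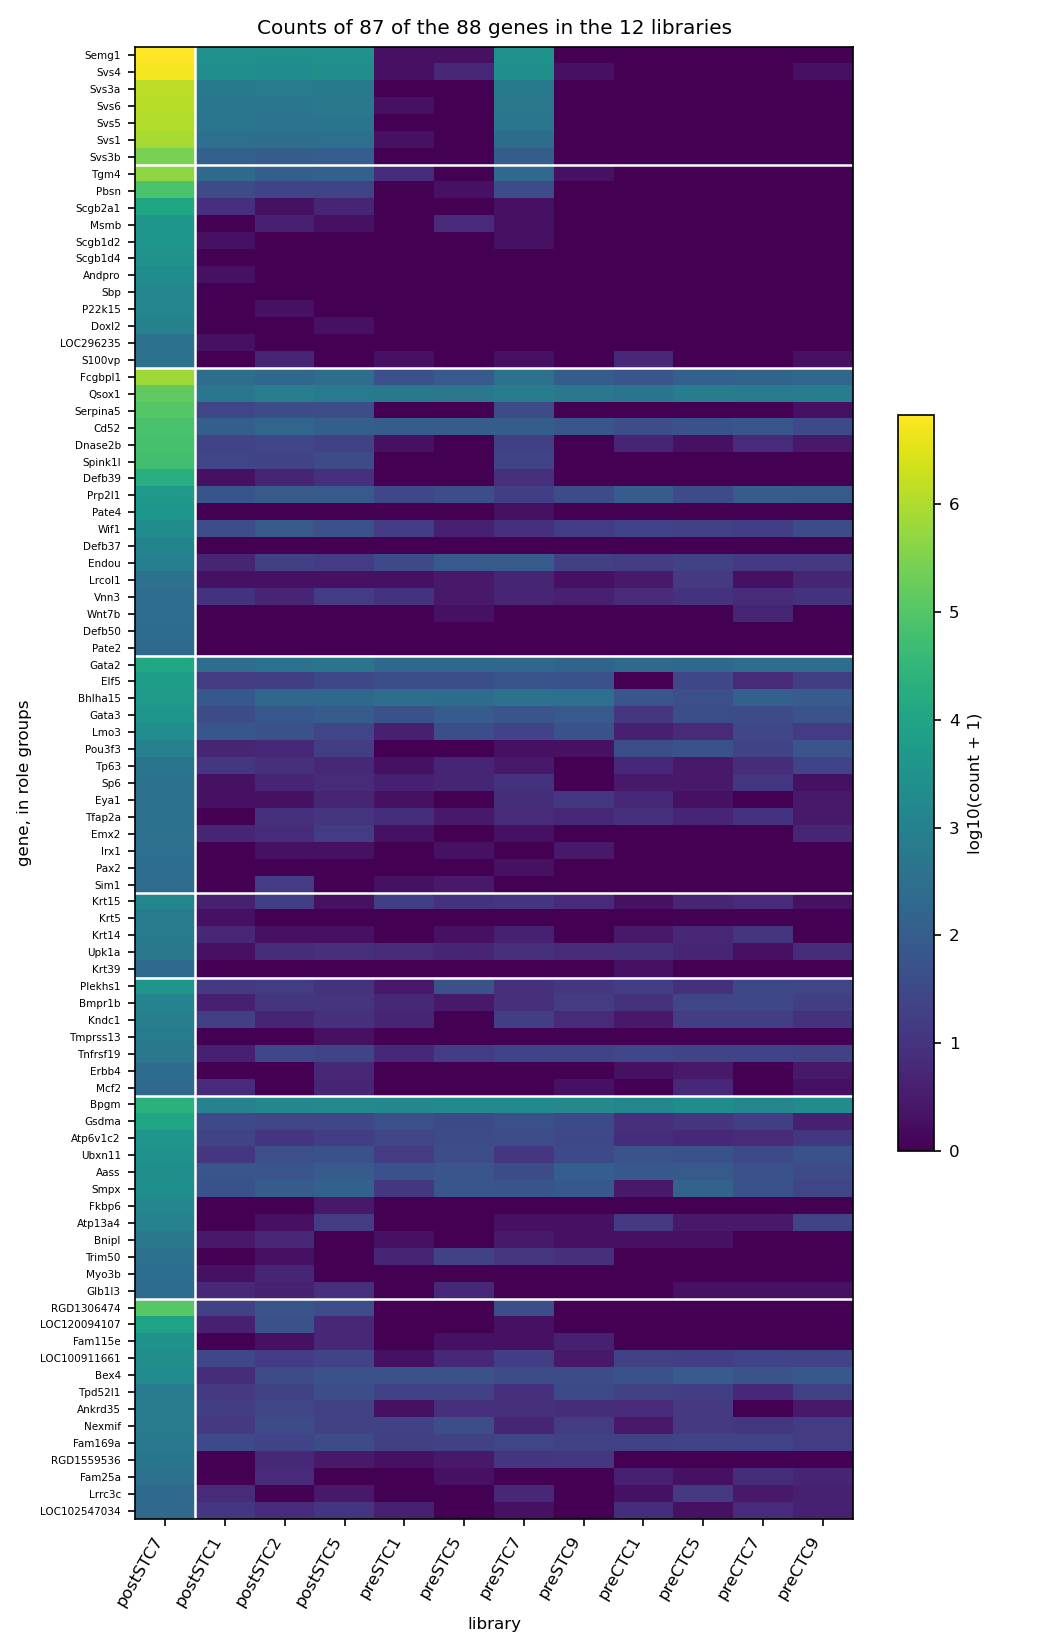
Counts of 87 of the 88 genes in the 12 libraries as log10(count + 1), with postSTC7 on the left of the white line and genes in rows grouped by role in the order of the text. The vesicle genes are also visible in postSTC1, postSTC2, postSTC5 and preSTC7, with 102 to 2969 counts, while Qsox1, Bpgm and Gata2 have a level in every library.

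The set also held 15 genes of transcription factors and cofactors, which took 0.100% of the counts of postSTC7. Pax2, a factor of the urogenital tract, had 288 counts in postSTC7 and 1 over the other 11. Gata2, a zinc finger factor of the urogenital tract, had 11938 counts in postSTC7 and 160 to 452 elsewhere, and Gata3 had 3855 and 11 to 99. Elf5, an ETS factor of secretory epithelia, had 6621 counts in postSTC7 and 0 to 59 elsewhere. Bhlha15, a regulator of serous secretory cells, had 4586 and 45 to 357. Tp63, a factor of basal epithelial cells, had 449 counts in postSTC7 and 0 to 22 elsewhere. Further ones were Lmo3, Pou3f3, Sp6, Eya1, Tfap2a, Emx2, Irx1 and Sim1, with 2216, 972, 377, 372, 344, 333, 312 and 277 counts in postSTC7.

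Keratins of basal epithelium were also in the set, at a low level. Krt5 and Krt14, the keratin pair of basal cells, had 634 and 629 counts in postSTC7, and 0 to 1 and 0 to 10 in the other libraries. Krt15, Upk1a and Krt39 had 1320, 555 and 217 counts there, and Upk1a was the only gene of a list of 5 uroplakins to meet the rule. The 5 genes of this group took 0.00852% of the counts of postSTC7.

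Receptor and signalling genes numbered 7 and took 0.0184% of the counts. They were Plekhs1, Bmpr1b, Kndc1, Tmprss13, Tnfrsf19, Erbb4 and Mcf2, with 3718 counts for Plekhs1 and 218 for Mcf2 in postSTC7. Another 12 genes of metabolism, transport and cell machinery took 0.128%, led by Bpgm, the bisphosphoglycerate mutase of red blood cells, and Gsdma, a gasdermin. Bpgm had 23308 counts in postSTC7 and 1065 to 2131 elsewhere, and Gsdma had 11069 and 3 to 45. The remainder of these 12 were Atp6v1c2, Ubxn11, Aass, Smpx, Fkbp6, Atp13a4, Bnipl, Trim50, Myo3b and Glb1l3, with 252 to 3866 counts in postSTC7.

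A last 13 genes were given no role. RGD1306474 led them with 114992 counts in postSTC7, 21, 60 and 41 in postSTC1, postSTC2 and postSTC5, 43 in preSTC7 and 0 in the other 7 libraries. LOC120094107 had 8488 counts in postSTC7 and 49 in postSTC2, but at most 5 in any other library. The rest were Fam115e, LOC100911661, Bex4, Tpd52l1, Ankrd35, Nexmif, Fam169a, RGD1559536, Fam25a, Lrrc3c and LOC102547034, with 212 to 3096 counts in postSTC7.

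The set was steep. The 2 leading genes took 30.4% of the counts of postSTC7, the 6 leading genes 42.0% and the 20 leading genes 47.6%, while the weakest 44 genes took 0.0598%. In postSTC7, 5 genes passed 1000000 counts, 12 passed 100000 and 50 passed 1000. The share in postSTC7 was over 1000 times the highest other share for 26 genes and over 100 times for 42. Just inside the limit of 10 times were Bpgm (10.03), Endou (10.23) and Bhlha15 (12.34), and just outside were Fam189a1 (9.941), Sptb (9.471) and Gdf7 (9.423). Just inside the limit of 200 counts were LOC102547034 (212), Krt39 (217) and Mcf2 (218), and just outside were Gabrp (191), Meltf (188) and Irx2 (186).

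Several of the genes lie beside each other in the genome. In the gene order of assembly GRCr8, used only for neighbours, Semg1, Svs3b, Svs4, Svs3a, Svs6 and Svs5 are 6 consecutive protein-coding genes of chromosome 3. Scgb1d2, Scgb1d4 and Scgb2a1 lie within 4 genes on chromosome 1, and Doxl2 and Svs1 are adjacent on chromosome 4. Of 87 genes of the set placed there, 25 lay within 5 protein-coding genes of another one. That proximity was not compared with other gene sets.

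The other 11 libraries differed in how much of the set they held. In postSTC1, postSTC2, postSTC5 and preSTC7 the 7 vesicle genes had 7273, 6678, 7167 and 7339 counts, or 0.0242, 0.0177, 0.0210 and 0.0194% of each library. In preSTC1, preSTC5 and preSTC9 they had 4, 6 and 1 counts, and in the preCTC libraries 1 count in preCTC9 and 0 in preCTC1, preCTC5 and preCTC7. Taking 3 counts as the limit that a count of 0 allows, the share could be up to 8.77e-06% in preCTC1, 8.31e-06% in preCTC5 and 8.23e-06% in preCTC7. So the traces were found in every postSTC library and in 1 of 4 preSTC libraries. In the deposited library names, the postSTC libraries are numbers 1 to 4 and preSTC7 is number 11.

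**Figure D3:**
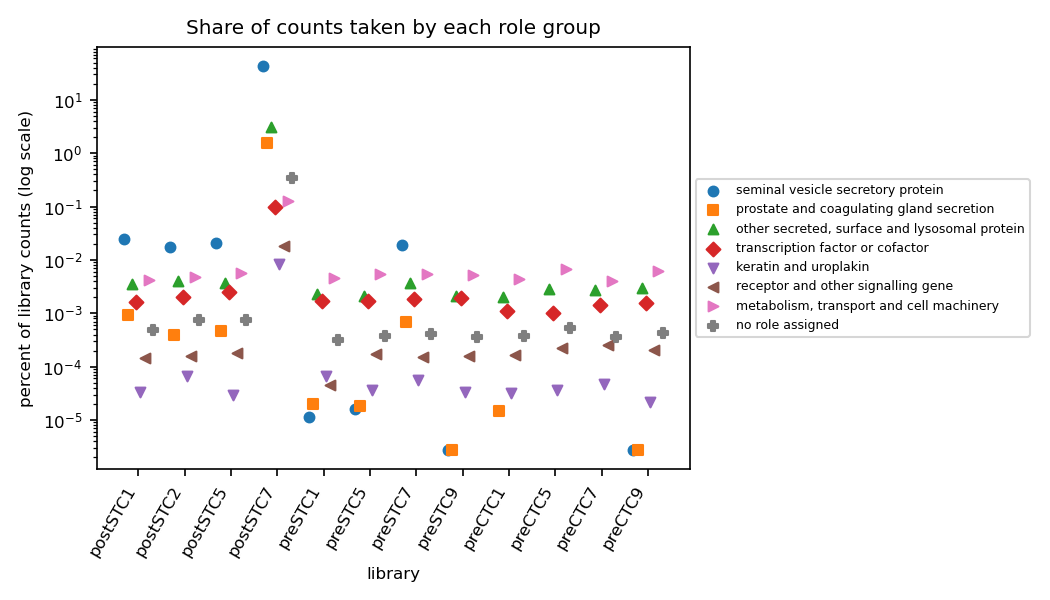
Percent of each library's counts, on a log axis, taken by each of the 8 role groups, with the 12 libraries on the horizontal axis and groups at 0 counts left out. The vesicle genes take 42.7% in postSTC7 and 0.0177 to 0.0242% in postSTC1, postSTC2, postSTC5 and preSTC7, while the metabolism group takes 0.00401 to 0.00675% in the other 11 libraries.

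The make-up of the traces was compared gene by gene with postSTC7 over the 41 genes that had at most 3 counts in the preCTC libraries together. Over these genes postSTC1 held 43.0 counts for every 100000 counts in postSTC7 (exact Poisson 95% interval 42.0 to 44.0), postSTC2 39.6 (38.7 to 40.5), postSTC5 42.1 (41.1 to 43.0) and preSTC7 43.6 (42.6 to 44.5). The 4 ratios thus lay within 39.6 to 43.6, but they are of raw counts, not scaled for the depth of each library. As shares, the 41 genes took 0.0254, 0.0187, 0.0219 and 0.0205% of postSTC1, postSTC2, postSTC5 and preSTC7. Semg1, Svs4, Svs3a, Svs6 and Svs5 alone made up 89.3 to 90.1% of these counts, so the ratios mostly reflect those genes. The remaining 7 libraries held 1 to 45 counts of the 41 genes each, or at most 0.253 for every 100000.

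Single genes varied around this ratio. The vesicle genes had 31.6 to 46.4 counts for every 100000 in postSTC7 across the 4 libraries. The interval of a gene's own ratio held the library's pooled ratio for 33 of 41 genes in postSTC1, 32 in postSTC2, 35 in postSTC5 and 36 in preSTC7. Only 23 to 25 of the 41 had any count in a given one of these libraries, and at 0 counts the interval is wide. Tgm4 stood at 46.1 and 43.9 in postSTC1 and preSTC7, but at 23.0 and 25.2 in postSTC2 and postSTC5. RGD1306474 stood at 18.3 in postSTC1 and 52.2 in postSTC2, and LOC120094107 at 577 in postSTC2. Defb39, with 18766 counts in postSTC7, stood at 5.33 in postSTC1 (interval 0.135 to 29.7) and at 42.6 in postSTC5 and preSTC7. Scgb1d2 and Pate4, with 3969 and 3778 counts in postSTC7, had 0 or 1 count in each of the 4 libraries, so that absence could not be told from the same ratio at this depth. How these counts came into the 4 libraries was not tested.

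**Figure D4:**
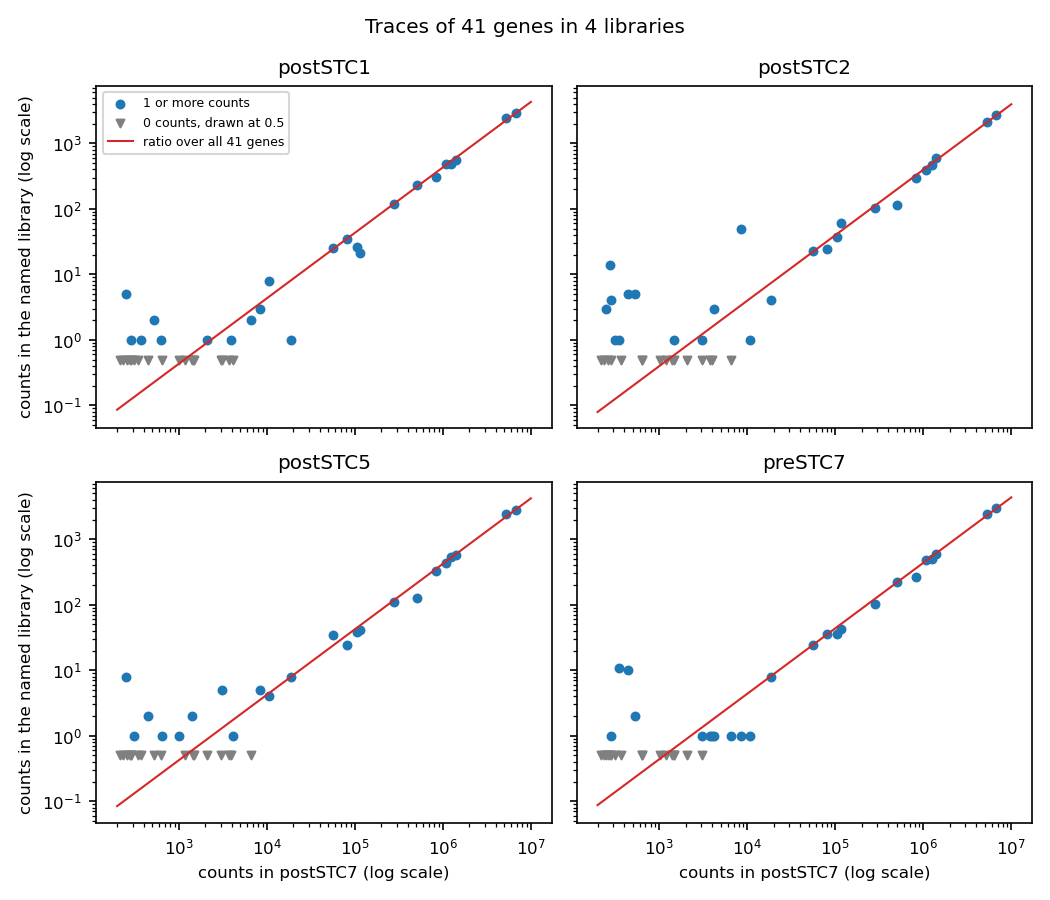
Counts of 41 genes in postSTC1, postSTC2, postSTC5 and preSTC7 (vertical, log axis) against their counts in postSTC7 (horizontal, log axis); grey triangles are genes at 0 counts, drawn at 0.5, and the red line is the ratio over all 41 genes. The 12 of these genes with the most counts in postSTC7 stand at 18.3 to 62.5 counts for every 100000. Some lie off the line, such as Tgm4 in postSTC2 and postSTC5 and RGD1306474 in postSTC1.

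Fixed lists of other cell types bear on what else postSTC7 held. Of a testis and sperm list, all 5 genes found in the table (Ldhc, Prm1, Prm2, Spata18 and Tnp2) were at 0 in postSTC7. These 5 had at most 8 counts in any other library, so their zeros do not set postSTC7 apart. Of 6 epididymis genes, none met the rule, Adam7 and Spag11a were at 0, and Cst8 had 81 counts in postSTC7 and 0 in every other library. Of 6 genes of the pancreas, 5 were at 0 in postSTC7. Among these, Amy2a3 and Prss1 were also at 0 in every other postSTC library and every preSTC library. Cpa1 had 13, 4 and 116 counts in postSTC1, postSTC2 and postSTC5. Skeletal muscle genes summed to 451 CPM (counts scaled to a common library total) in postSTC7 and 24.2 to 119 CPM elsewhere. Acta1, the skeletal muscle actin, accounted for most of this, with 17507 counts in postSTC7, while Ckm and Myh4, defining genes of skeletal muscle, had 157 and 1. Of 13 genes of an androgen axis and urogenital transcription factor list, 4 were in the set, Gata2, Gata3 and Pax2 among them. Others of that list had a share in postSTC7 below the highest other share, at 0.0717 of it for Hoxb13, 0.0909 for Hoxa13, 0.115 for Hoxd13, 0.142 for Tmprss2, 0.169 for Srd5a1, 0.444 for Foxa1, 0.667 for Srd5a2 and 0.990 for Fkbp5. These shares are of all counts, the 88 genes included.

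Because the 88 genes took 47.9% of the counts of postSTC7, its other genes were measured on 20496199 counts, against at least 30085060 in each other library. Among 12556 other genes with at least 50 counts in each postSTC library, the median log2 ratio of postSTC7 to postSTC1, postSTC2 and postSTC5 was -0.83, -0.93 and -0.98 per library total. With the 88 genes left out of the totals it was 0.11, 0.01 and -0.04. TMM scaling, which trims extreme genes, gave postSTC7 a factor of 0.568, against 0.97 to 1.15 in the other libraries. An intestinal epithelium list of 10 genes, all detected in postSTC7, summed to 7153 CPM of the counts outside the set in postSTC7 and to 10336 to 14007 CPM in the other postSTC libraries. A list of 20 genes of the secretory pathway of the endoplasmic reticulum summed to 12549 CPM of the counts outside the set in postSTC7 and to 4808 to 5446 CPM in the other postSTC libraries. Smooth muscle genes, 8 in all, summed to 9061 CPM of the counts outside the set in postSTC7 and to 5744 to 7532 CPM in the other postSTC libraries. In such bulk samples fewer cells of a type and less RNA per cell cannot be told apart, and what gland tissue contributed to these sums was not tested.

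The comparison of postSTC against preSTC contains postSTC7, so what it gives for these genes is a description. Of the 88 genes, 42 passed edgeR's filter on low counts, and 46, Krt5 and Scgb2a1 among them, did not, since too few libraries held enough counts. As a description, 24 of the 42 passed an adjusted p under 0.05, all with higher values in postSTC, where 18.0% of all tested genes passed it, 11.1% as higher and 6.90% as lower (edgeR's quasi-likelihood F-test, adjusted by Benjamini-Hochberg). Nothing is read from that count, since the choice of the genes used postSTC7. Fitted log2 fold changes were 11.80 to 12.35 for the 7 vesicle genes, 11.83 for Tgm4 and 11.79 for Pbsn. They were 6.72 for Qsox1 and 4.81 for Gata2, which had counts in all 12 libraries.

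The number of these genes past the threshold moved with single libraries. Without postSTC7 it was 5 of 42 tested, beside 2907 of all 15896 tested genes. Without postSTC1 it was 37 of 44, beside 3684 of 15881. It was 2 of 46, 1 of 46, 5 of 46 and 2 of 47 without preSTC1, preSTC5, preSTC7 or preSTC9. In these fits 1609 of 15911, 1855 of 15893, 1681 of 15892 and 1900 of 15909 of all tested genes were called, so calls moved over the whole table too. DESeq2 gave no adjusted p for any of the 88 genes in this comparison. Among the other genes of the table, 2809 were called with postSTC7 and 2902 without it, and 2321 of them were shared and of the same direction, or 82.6 and 80% of the 2 sets.

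Without postSTC7, the comparison of postSTC1, postSTC2 and postSTC5 against preSTC measured these genes in libraries that the rule used only as a ceiling. Again 42 genes passed the filter and 46 did not. Of the 42, 4 rose and 1 fell (11.9%), where 18.3% of all tested genes were called, 11.0% as higher and 7.27% as lower (edgeR, same threshold). In this fit, which included preSTC7, the share of these genes called was no larger than that of all genes. Without preSTC7 it was larger, at 18 of 42, beside 12.9% of all tested genes. With preSTC7 included, the 42 had a median log2 fold change of 0.83, beside 0.01 for all tested genes. The 5 called genes were all among the 47 with more than 3 counts in preCTC, and the 12 tested genes of the other 41, the vesicle genes included, were not called.

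Wif1, a secreted Wnt inhibitor, had 41, 81 and 49 counts in postSTC1, postSTC2 and postSTC5, against 15, 3, 8 and 14 in preSTC1, preSTC5, preSTC7 and preSTC9. The groups did not overlap, and the log2 fold change was 2.44 ± 0.51 (SE, edgeR adjusted p = 0.00837). Gata2 had 282, 373 and 452 counts in these postSTC libraries, against 203, 195, 173 and 160 in preSTC, also without overlap (log2 fold change 1.00 ± 0.19, SE, edgeR adjusted p = 0.00508). Pou3f3, a homeobox factor, had 4, 5 and 16 counts against 0, 0, 1 and 1, with 23 to 63 in preCTC (log2 fold change 3.74 ± 0.86, SE, edgeR adjusted p = 0.0128). Prp2l1 had 60, 82 and 81 counts against 30, 41, 18 and 38 (log2 fold change 1.22 ± 0.38, SE, edgeR adjusted p = 0.0451). Endou, a poly(U)-specific endonuclease, had 4, 19 and 14 counts against 31, 82, 85 and 19, and the groups met at 19 counts (log2 fold change -2.16 ± 0.59, SE, edgeR adjusted p = 0.0276). Wif1 and Gata2 kept their call when any 1 of the 7 libraries was left out, and Pou3f3 lost it without postSTC5. Endou lost it without postSTC1, postSTC2, postSTC5, preSTC5 or preSTC7, and Prp2l1 lost it in every such fit. With the replicate number added to the fit as a block, none of these genes was called.

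Semg1 shows how preSTC7 entered this comparison. With 2885, 2692 and 2779 counts in postSTC1, postSTC2 and postSTC5 against 1, 1, 2969 and 0 in preSTC1, preSTC5, preSTC7 and preSTC9, its log2 fold change was 1.94 ± 1.88 (SE, edgeR adjusted p = 0.52). The other 6 vesicle genes had log2 fold changes of 1.92 to 2.25 and were not called either. Without preSTC7, 18 of 42 genes were called and all were higher in postSTC, where 12.9% of all tested genes were called, 8.57% as higher and 4.30% as lower. These 18 held all 7 vesicle genes, Tgm4, Pbsn, Serpina5, Spink1l, Dnase2b, Fcgbpl1 and RGD1306474. The count was 3 of 44, 3 of 46 and 3 of 42 without postSTC1, postSTC2 or preSTC5, and 2 of 45 without postSTC5. In these fits 3179 of 16138, 1920 of 16120, 2283 of 15837 and 1618 of 16137 of all tested genes were called.

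**Figure D5:**
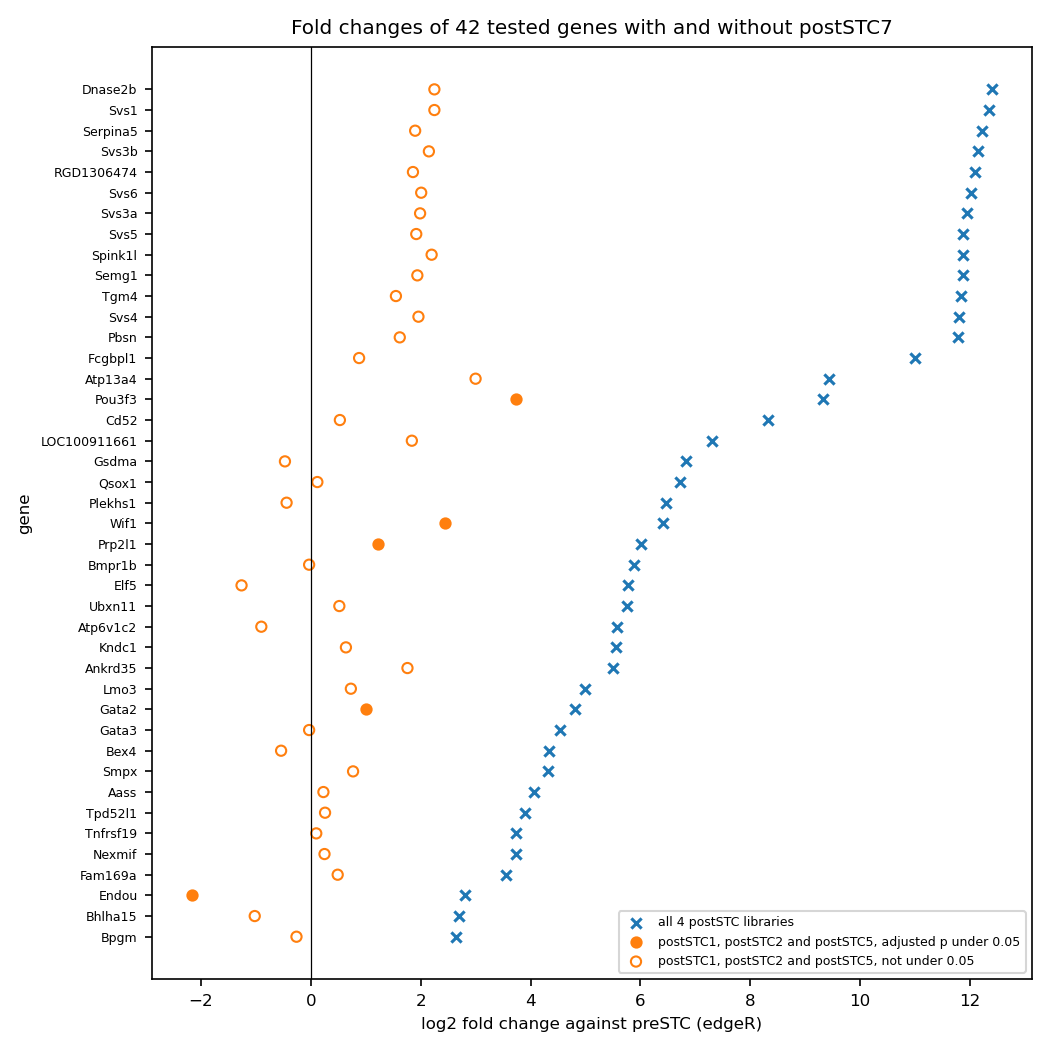
Fitted log2 fold changes against preSTC of the 42 tested genes, with all 4 postSTC libraries (blue crosses, a description) and with postSTC1, postSTC2 and postSTC5 (orange); filled orange points have an edgeR adjusted p under 0.05. With postSTC7 the values run from 2.64 to 12.40, and without it they run from -2.16 to 3.74 and 5 are filled.

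The comparison of preSTC against preCTC holds no postSTC library, and in it the counts of the vesicle genes came from 1 library. They summed to 4, 6, 7339 and 1 counts in preSTC1, preSTC5, preSTC7 and preSTC9, against 0, 0, 0 and 1 in preCTC1, preCTC5, preCTC7 and preCTC9. None of the 42 tested genes was called (edgeR, adjusted p under 0.05), 2 had an unadjusted p under 0.05, and 38.7% of all tested genes were called, 19.1% as higher and 19.6% as lower. DESeq2 gave no adjusted p for any of the 88. This count depended on postSTC7, whose spread enters the fit that the 3 groups share. With postSTC7 left out of that fit, 16 of 42 were called, 13 higher and 3 lower in preSTC, where 45.7% of all tested genes were called, 22.3% as higher and 23.3% as lower. Those 16 included 6 of the vesicle genes and Tgm4, for which preSTC7 alone held more than 6 counts among the preSTC libraries.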

How the data were processed

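Polyadenylated RNA of 12 rat intestine libraries was analysed, with groups and replicate numbers from the titles. The authors deposited raw read counts by gene, and the authors' FPKM table is proportional to count over library total within each gene (largest relative deviation 2e-13). The submitters' processing notes name fastp, HISAT2, HTSeq and the assembly mRatBN7.2, without settings. The series' design text describes pig ileum and another pipeline and was not used. The sources used here do not say whether strand was used or how reads with several matches were handled.

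Shares are counts over the column total, with Wilson 95% intervals, and ratios of traces have exact Poisson intervals. Tests used edgeR 4.0.16 in R 4.3.3 (TMM, filterByExpr, quasi-likelihood F-test, group as the only term, Benjamini-Hochberg over all genes tested, 15704 genes with 12 libraries and 15896 without postSTC7). The SE is the absolute log2 fold change over the square root of F. The fit was tested on simulated data. DESeq2 1.42.0, other size factors, no filter, a replicate block and leaving out each library were alternatives. Fits without postSTC7 for preSTC against preCTC, and without both preSTC7 and the filter, were added after seeing the data. Replicates differed by more than sampling noise (chi-square per gene at least 29.3). Of 18749 identifiers, 18531 (98.8%) matched RefSeq of GRCr8, used for names, neighbours and promoters. The 88 genes follow the stated rule. The 10 with the most counts, the markers Semg1, Svs4, Pbsn and Tgm4 and the genes beside each limit were to be named in full, and all others by role, except 1 gene that is not reported here by name. Genes, roles and lists were chosen with earlier results of these data known.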

Additional observations from a re-analysis of the deposited data

Results flagged for a closer look

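The summed share of the 88 genes and of each role group was examined within each group of 4 libraries for a library far from the other 3. By the limit of Dixon's test, used here only as a flag, a library stood apart in 14 of 27 cases. Chance marks about 1 in 20 such groups, but the cases are not set against that rate: the choice of the genes fixed those of postSTC7, and the sum over all 88 genes overlaps the role groups.

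In postSTC, postSTC7 stood apart for all 88 genes (47.9% of counts), vesicle proteins (42.7%), prostate and coagulating gland secretions (1.56%), other secreted, surface and lysosomal proteins (3.06%), transcription factors (0.100%), keratins and uroplakin (0.00852%), receptor and signalling genes (0.0184%), metabolism, transport and cell machinery (0.128%) and genes with no role assigned (0.342%). In preSTC, preSTC7 stood apart for all 88 genes (0.0317%), vesicle proteins (0.0194%), prostate and coagulating gland secretions (6.90e-04%) and other secreted, surface and lysosomal proteins (0.00365%). In preCTC, preCTC9 stood apart for vesicle proteins with 2.76e-06%, which is 1 count.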

How the results depend on the processing

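The rule gave 88 genes, and 42 with a limit of 100 times, 50 with at least 1000 counts and 143 against the median of the other 11 libraries. Their share in postSTC7 was 47.9%, and 48.1% at 5 times, 47.8% at 20 times, 47.7% at 100 times, 48.0% with at least 50 counts, 47.9% with at least 1000 counts, 48.5% against the median, 48.1% against the other postSTC libraries and 65.8% of the summed FPKM. The genes called in postSTC against preSTC were 24, or 14 with the replicate block and 1 to 37 with 1 library left out. In postSTC1, postSTC2 and postSTC5 against preSTC they were 5, or 9 with DESeq2, 8 with the replicate block, 18 without both the filter and preSTC7, and 2 to 18 with 1 library left out. With 1 library left out, calls over all tested genes ran from 1609 to 3684 and from 1618 to 3179 in these comparisons, in that order. The block exchanged the genes: none of the 5 (Wif1, Gata2, Pou3f3, Prp2l1 and Endou) was among the 8, which were the 7 vesicle genes and Tgm4. In preSTC against preCTC they were 0, or 13 with the replicate block and 16 without postSTC7. Deviations of same-numbered libraries correlated at -0.03 to 0.23. These values were not set against libraries of different numbers, so they cannot decide whether a number marks a pair. The main fits took no pairs, because the labels do not say that a number marks the same animal. DESeq2 size factors and totals without the 88 genes left these 3 counts as they were.

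Among 11 genes examined singly, the direction turned for Fcgbpl1 in preSTC against preCTC with the replicate block (-0.54) and without preSTC7 (-0.67 to 0.55 with 1 library left out), and for Qsox1, which was near 0 in preSTC against preCTC (0.02 with totals without the 88 genes, -0.16 to 0.08 with 1 library left out) and in postSTC1, postSTC2 and postSTC5 against preSTC (-0.01 to 0.23 with 1 library left out). The cause was not tested. Depth limits the traces, since Pate4, with 3778 counts in postSTC7, had 0 or 1 count in each library with traces.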

Other observations

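The rule was also applied with each of the other 11 libraries in the place of postSTC7. It found 16 genes in postSTC1 (0.421% of its counts), Lct, Apoa4 and Gip among them, 5 in preCTC5 (0.0169%), 1 in postSTC2 (Ifit1, 0.00657%) and 0 in each of the remaining 8 libraries.

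With a limit of 5 times in place of 10, the set in postSTC7 grew to 121 genes.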
